A study of Caenorhabditis elegans with 18 samples.

Results

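The neighbouring Caenorhabditis elegans genes mltn-3 (W02B8.3) and citk-1 (W02B8.2) were followed through every deposited library. They are 2 of the 42400 genes listed for mixed populations and 2 of the 42048 listed for young mothers, and each was found by its name in all 6 tables. The pair was chosen from these data: small RNAs (sRNAs) mapping to mltn-3 were far more abundant in 4 meg-3 meg-4 mutant lines than in wild type, and those mapping to citk-1 were less abundant. The sRNA differences between the lines and wild type are therefore given as a description without a test. The citk-1 mRNA and the values in rde-11 mutants were also in view when the pair was chosen, so their tests, fitted over all genes, are no independent support for that choice.

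Whole animals grown at 20 C were measured in 18 libraries, with 2 libraries in each of 9 groups. The wild-type strain N2 and 4 lines with the alleles meg-3(ax3055) and a meg-4 mutation were grown as mixed populations on NA22 bacteria, and their sRNAs were sequenced. The meg-4 allele was ax3052 in line 1, ax4310 in line 2 (JH3672), ax4311 in line 3 (JH3673) and ax4312 in line 4 (JH3674). Young mothers fed HT115 bacteria with the empty vector L4440 were used for mRNA libraries of N2 and line 1 (JH3475) and for sRNA libraries of N2 and rde-11(hj37). The lines were made separately and share the meg-3 allele. All 4 were compared with the same pair of N2 libraries, so their differences from N2 are not independent of each other. For line 2 a group label names young mothers, but its titles name a mixed population, and the titles were followed. The labels do not say whether replicates came from separate cultures, so p-values measure only the spread between these samples, which may be technical.

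MEG-3 and MEG-4 are disordered proteins that form the scaffold of P granules, the RNA-protein condensates of the worm germline and early embryo, where several proteins of sRNA pathways are found. Most worm sRNAs with a 5' triphosphate are antisense to mRNAs. RNA-dependent RNA polymerases make them on an mRNA template, and Argonaute proteins that carry them can lower the target's expression. RDE-11 acts in the response to supplied double-stranded RNA, at the step where such secondary sRNAs are amplified. mltn-3 takes its name from mlt-10, a gene needed for moulting of the cuticle, and belongs to the same family. citk-1 is the worm relative of citron kinase, which in flies and mammals acts late in cytokinesis at the midbody.

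Facts of the whole series that bear on the pair are few. Depth was 3820363 to 7465897 reads per sRNA library and 21994906 to 45231464 reads per mRNA library. sRNA values are RPM, reads scaled to the same total in every library, and mRNA values are a signal scaled for depth. Sense and antisense reads could not be told apart, so sRNAs are described only as mapping to a gene. The mutated genes matched their labels: meg-3 mRNA averaged 93.4 in N2 and 0.298 in line 1, and meg-4 mRNA averaged 44.4 and had no read in line 1. sRNAs mapping to meg-4 averaged 42.2 RPM in N2 and between 0 and 0.323 RPM in the 4 lines. In rde-11 mutants the sRNAs mapping to rde-11 itself averaged 640 RPM in N2 and 742 RPM in the mutant, which does not check the allele. In whole animals a lower value from fewer cells of a type and one from less RNA per cell cannot be told apart.

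sRNAs mapping to mltn-3 were scarce in N2 and abundant in every meg-3 meg-4 line. The N2 libraries of mixed populations held 3.32 and 1.31 RPM, which were 14 and 5 reads. The libraries of line 1 held 486 and 882 RPM, those of line 2 held 1000.4 and 901 RPM, those of line 3 held 1114 and 1063 RPM, and those of line 4 held 1093 and 843 RPM. All 8 line libraries were far above both N2 libraries, with no overlap, and the lowest was replicate 1 of line 1. The group means were 2.32 ± 1.42 RPM in N2 and 684 ± 280, 951 ± 70.5, 1088 ± 36.3 and 968 ± 177 RPM in lines 1 to 4 (SD, n = 2 each).

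The ratio of mean mltn-3 sRNA levels, line over N2, was 295 in line 1, 410.5 in line 2, 470.0 in line 3 and 418 in line 4. On the scale of log2(RPM + 1) these are differences of 7.69, 8.16, 8.36 and 8.19 between group means. The scarce N2 reads set the precision: 19 reads over both libraries give 1.42 to 3.69 RPM as the exact Poisson 95% interval. With that counting error the ratio of pooled reads had a 95% interval of 185 to 481 in line 1, 259 to 671 in line 2, 295 to 767 in line 3 and 266 to 690.4 in line 4. Intervals cover counting error only, since reads without molecular identifiers are not independent molecules.

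mltn-3 had the highest log2 difference of all tested genes in each line, among 6821, 6678, 6653 and 6590 genes with a mean of at least 10 RPM. As background, 16.8, 58.6, 60.2 and 72.1% of tested genes were called in either direction in lines 1 to 4, and 3.03, 5.83, 5.83 and 5.40% were called higher (limma, Benjamini-Hochberg adjusted p below 0.05). Nothing is read from that rank or these shares for the pair, since the same contrasts chose it. mltn-3 also passed the limit of 10 RPM only through the line libraries. Of 33639 genes with a mean under 5 RPM in N2, mltn-3 was the sole gene that reached a mean of 100 RPM in lines 1, 2 and 4. In line 3 mltn-3 and pqn-24 did. These limits were set after the values were seen, and the same contrasts chose mltn-3, so nothing is read from this count either. F41C3.8, at 12.3 RPM in N2 and 514 to 781 RPM in the lines, lay outside the limit of 5 RPM.

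sRNAs mapping to citk-1 went the other way, from a level in N2 that was far higher than that of mltn-3. The N2 libraries held 244 and 219.6 RPM. The libraries of line 1 held 91.7 and 87.4 RPM, those of line 2 held 100.1 and 98.4 RPM, those of line 3 held 84.3 and 96.2 RPM, and those of line 4 held 71.7 and 59.4 RPM. Every line library was below both N2 libraries, and line 4 held the lowest values. The means were 232 ± 17.6 RPM in N2 and 89.6 ± 3.05, 99.3 ± 1.18, 90.3 ± 8.39 and 65.5 ± 8.65 RPM in lines 1 to 4 (SD, n = 2 each).

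Mean citk-1 sRNA levels in N2 were 2.59, 2.34, 2.57 and 3.54 times those of lines 1 to 4, which are log2 differences of -1.36, -1.22, -1.35 and -1.81. The median tested gene was shifted downward in the lines, although RPM gives every library the same total. The median difference of all tested genes was -0.336, -0.562, -0.590 and -0.771, and 13.8, 52.8, 54.4 and 66.7% of tested genes were called lower. After TMM scaling (the trimmed mean of M-values, an estimate of library scale that removes most of that shift) the citk-1 difference was -1.05, -0.75, -0.79 and -1.20. By the values as deposited, 5.34, 7.28, 5.80 and 4.36% of tested genes lay below citk-1, so it was among the lower genes but far from the lowest.

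**Figure D1:**
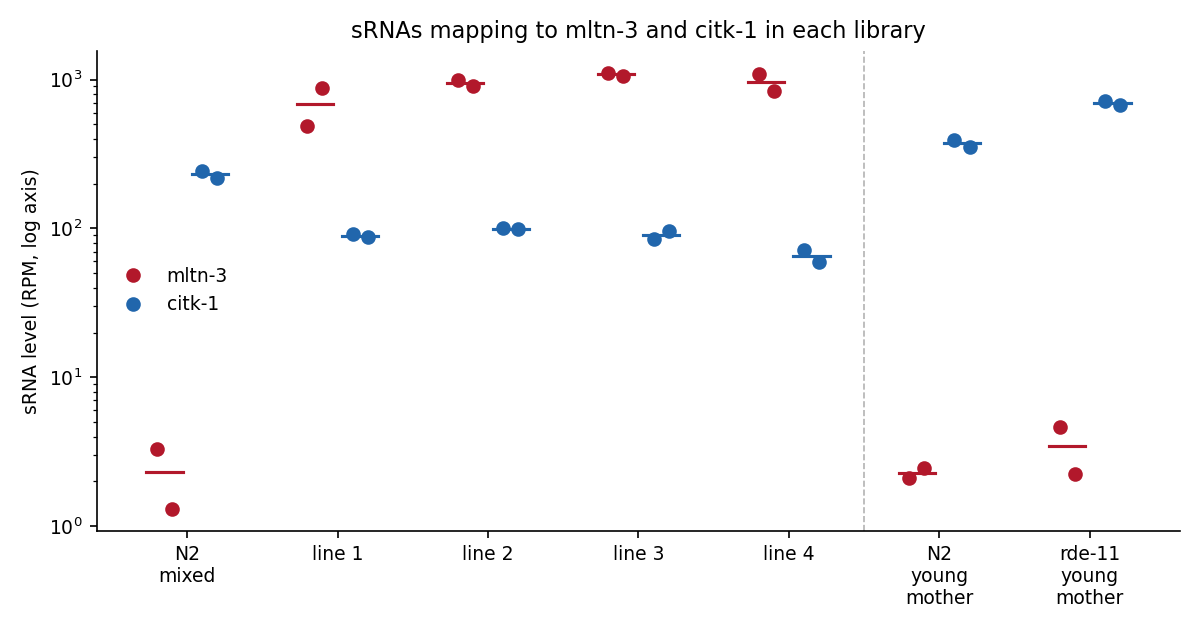
RPM of sRNAs mapping to mltn-3 (red) and citk-1 (blue) in each of the 14 sRNA libraries on a log axis, with a line at each group mean; the dashed line parts mixed populations from young mothers. mltn-3 stood at 1.31 to 4.68 RPM in N2 and rde-11 libraries and at 486 RPM or more in every line library, whereas citk-1 stood at 59.4 to 100.1 RPM in the lines and at 219.6 RPM or more elsewhere.

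The order of the 2 genes was thus exchanged: citk-1 was the more abundant in both mixed N2 libraries and in all 4 young-mother libraries, and mltn-3 was the more abundant in all 8 line libraries. The N2 values of mixed populations and young mothers are set side by side only, since stage and bacteria both differ and no test was made. mltn-3 averaged 2.32 RPM in mixed N2 and 2.29 RPM in young-mother N2, and citk-1 averaged 232 and 373 RPM.

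The lines were compared with each other without N2. The choice of the genes did not use this contrast, but it used the same line libraries and a change shared by all 4 lines. The spread among lines is therefore not free of that choice. The limma F test covered 6006 genes and called 27.3% of them. citk-1 sRNAs differed among the lines, with line 4 lowest and line 2 highest, a spread of 0.60 on the log2 scale (adjusted p = 0.0281), against a median spread of 0.485 over all genes. The call was lost with edgeR (adjusted p = 0.0796) and DESeq2 (0.188), with no limit on low values (0.142), and without either library of line 2 (0.0691 and 0.063) or replicate 2 of line 4 (0.22). For mltn-3 the spread was 0.73, with line 1 lowest and line 3 highest, and did not pass the threshold (adjusted p = 0.0749). It rested on line 1, whose libraries lay far apart: without replicate 1 of line 1 the spread was 0.30 (adjusted p = 0.442), and without its replicate 2 it was 1.16 (adjusted p = 0.00395). Without replicate 2 of line 4 the mltn-3 spread was 0.74 (adjusted p = 0.04995).

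Among the genes around the pair, mltn-4 and mltn-5 also had more sRNA reads in the lines than in N2. In the gene order of the WBcel235 assembly, chromosome II carries citk-1, the noncoding RNA W02B8.9, mltn-3, mltn-4, mltn-5 and hot-3 in this order, and the spans of citk-1 and mltn-3 do not overlap. mltn-4, annotated as a pseudogene, averaged 0.119 RPM in N2, a single read, and 3.80, 7.34, 8.22 and 5.70 RPM in lines 1 to 4 (31, 88, 99 and 77 reads). mltn-5 averaged 0.237 RPM in N2, which was 2 reads, and 5.02, 6.68, 8.12 and 6.57 RPM in the lines (41, 80, 98 and 87 reads). Every line library was above both N2 libraries for both genes, at levels far below mltn-3, and N2 replicate 2 held no read of either. How many of all genes were separated from N2 in this way was not counted, here or for the pair.

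Both were under the mean of 10 RPM that limma needed, and since they lie beside mltn-3 in the contrasts that chose the pair, their values are a description without a test. The N2 reads leave wide counting intervals for the ratio of pooled reads, line over N2: 5.08 to 1243 for mltn-4 in line 1 and 11.8 to 2682 in line 3, and 5.24 to 172 and 8.97 to 279 for mltn-5.

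Relative to mltn-3, these neighbours kept a narrow share across the 8 line libraries: mltn-4 had 0.471 to 0.861% and mltn-5 0.564 to 0.861% of the RPM of mltn-3 in the same library. The genes are relatives, the counting of reads shared between relatives is not given in the sources used here, and the part of shared reads in these values was not tested. mltn-5 also overlaps hot-3 in WBcel235. The other neighbours had few sRNA reads in any line: W02B8.9 had 1 read in N2 and 2, 5, 9 and 5 in the lines, hot-3, related to odr-2, had 3 in N2 and 4, 3, 9 and 3, and W02B8.1, beyond citk-1, had 2 in N2 and 2, 3, 5 and 7. W02B8.12 had none, and W02B8.8 had 1 read in N2 and none in the lines. Of the 12 entries of this stretch, 9 are listed in the files and 3 were not analysed here.

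**Figure D2:**
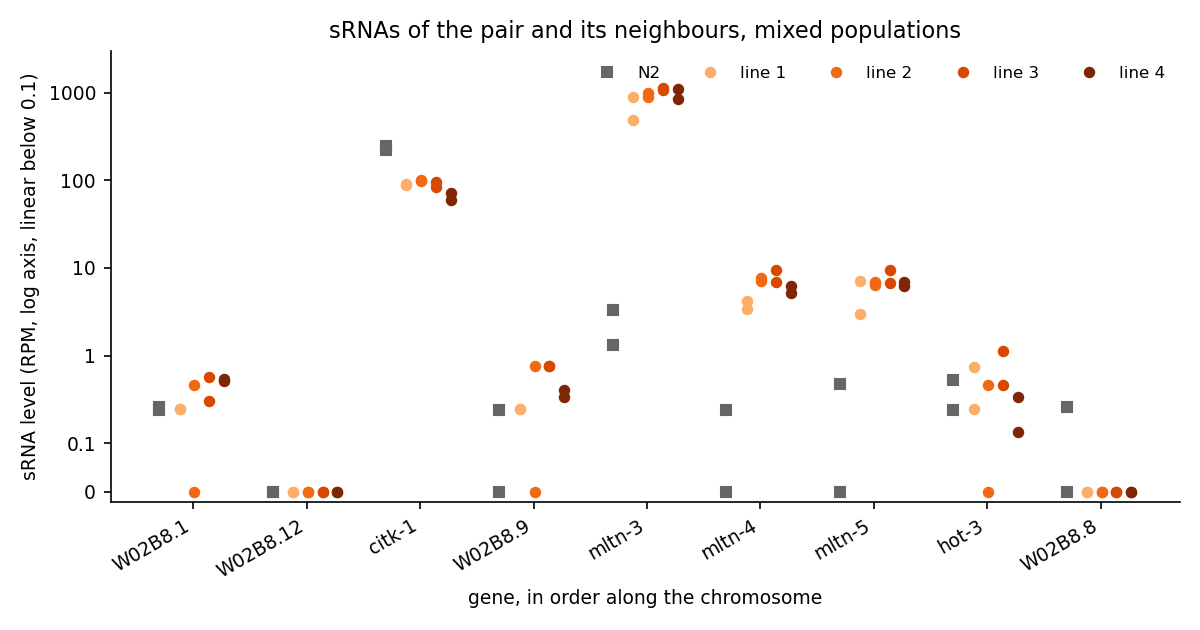
RPM of sRNAs in mixed populations for the 9 listed genes of the stretch, with N2 libraries as grey squares and line libraries as circles. Genes are in chromosome order except W02B8.8, which is placed last whatever its position. The axis is logarithmic and linear below 0.1 RPM. mltn-3, mltn-4 and mltn-5 lie above N2 in all 8 line libraries and citk-1 lies below N2.

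Pairs of adjacent protein-coding genes that were both tested were counted in the same contrasts that chose mltn-3 and citk-1. Nothing is therefore read from these counts for the 2 genes. Of 3213 such pairs in line 1, 19 were called in opposite directions, or 0.591%, and the shares were 4.37, 4.39 and 5.09% in lines 2 to 4. Pairs called in the same direction were more numerous, 90, 1095, 1140 and 1673 against 19, 136, 135 and 153 called in opposite directions. Over all tested genes, 3.03, 5.83, 5.83 and 5.40% were called higher in lines 1 to 4, and 13.8, 52.8, 54.4 and 66.7% lower. After TMM scaling the shares called opposite were 0.942, 1.69, 2.13 and 2.81%, or 30, 52, 65 and 82 pairs, against 52, 97, 104 and 121 pairs in the same direction.

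In the mRNA of young mothers citk-1 rose more than 4-fold in line 1, while mltn-3 mRNA was barely detected in either strain. citk-1 signal was 39.1 and 39.4 in N2 and 176.8 and 174.6 in line 1, with replicates far closer to each other than the groups. The means were 39.3 ± 0.243 and 176 ± 1.59 (SD, n = 2 each; 3453 and 11979 reads), a 4.47-fold difference. The limma log2 difference was 2.13 (SE 0.058, adjusted p = 1.97e-06), and the median over all 7616 tested genes was -0.110. Of all tested genes 14.5% were called in either direction, 4.18% higher and 10.3% lower.

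By log2 difference citk-1 mRNA was second among the 7616 genes, after scrm-4, a gene of the phospholipid scramblase family, at 3.37. Since citk-1 was chosen with its mRNA in view, nothing is read from that rank. In the authors' deposited table citk-1 has a log2 fold change of 2.16 and an adjusted p of 6.97e-140, the lowest of the 8769 genes with one. The other tools gave log2 2.21 for edgeR (adjusted p = 6.34e-06) and 2.16 for DESeq2 (6.62e-140).

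mltn-3 mRNA signal was 0.669 and 1.25 in N2 and 0.668 and 1.66 in line 1, so the groups overlapped. These values stood on 84 and 91 reads and were below the limit of the limma test. The log2 difference between group means of log2(signal + 1) was 0.12, and edgeR, which tested the gene, gave 0.43 (adjusted p = 0.531). The ratio of pooled reads per depth, line 1 over N2, was 1.45, with a counting interval of 1.07 to 1.97 that leaves out the spread between libraries. mltn-4 and mltn-5 had at most 6 mRNA reads per strain, and W02B8.1, on the far side of citk-1, averaged 2.21 in N2 and 2.09 in line 1 (edgeR log2 -0.05, adjusted p = 0.892).

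**Figure D3:**
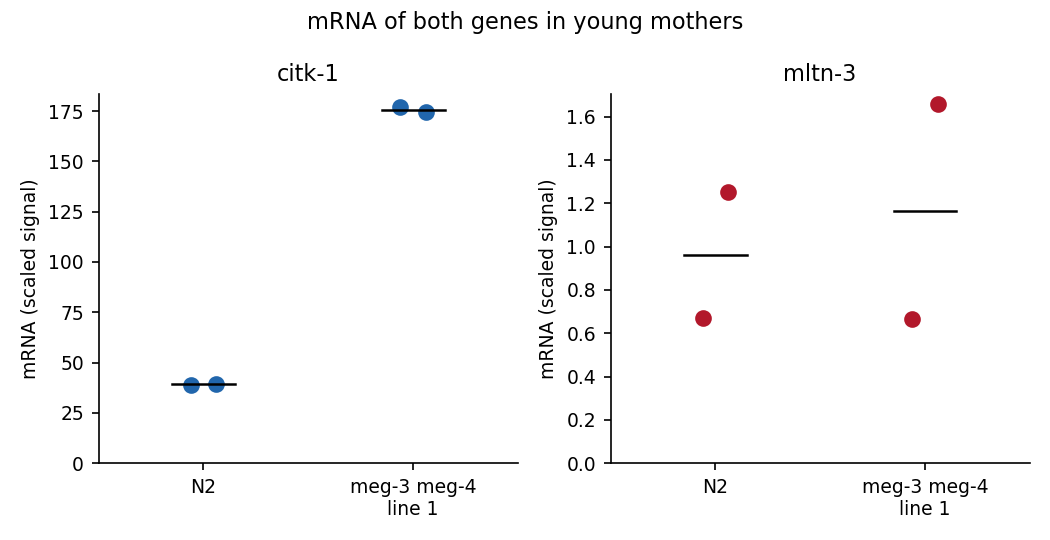
Scaled mRNA signal of citk-1 (left) and mltn-3 (right) in each young-mother library of N2 and line 1, with a line at each mean; the axes start at 0 and differ in range. citk-1 stood near 39 in N2 and near 176 in line 1, and the mltn-3 groups overlapped below 1.7.

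The sRNA and mRNA libraries of line 1 share no library, but they differ in stage and bacteria. Of 4720 genes tested in both, 381 were called lower in sRNA and 99 higher in mRNA, and 35 genes were both, which is 9.19% of the first set and 35.4% of the second. Of all 4720 genes 2.10% were higher in mRNA and 8.07% lower in sRNA, and 30 genes were lower in both. After TMM scaling 24 genes were both, or 16.3 and 24.2%. Among the 35, citk-1 had the second largest mRNA gain, after scrm-4 and ahead of B0511.11 (1.81) and the p38 kinase gene pmk-3 (1.58). Nothing is read from that place for citk-1, since both of its differences were in view when it was chosen. mltn-3 is not in this count, since its mRNA lay below the limit of the limma test.

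**Figure D4:**
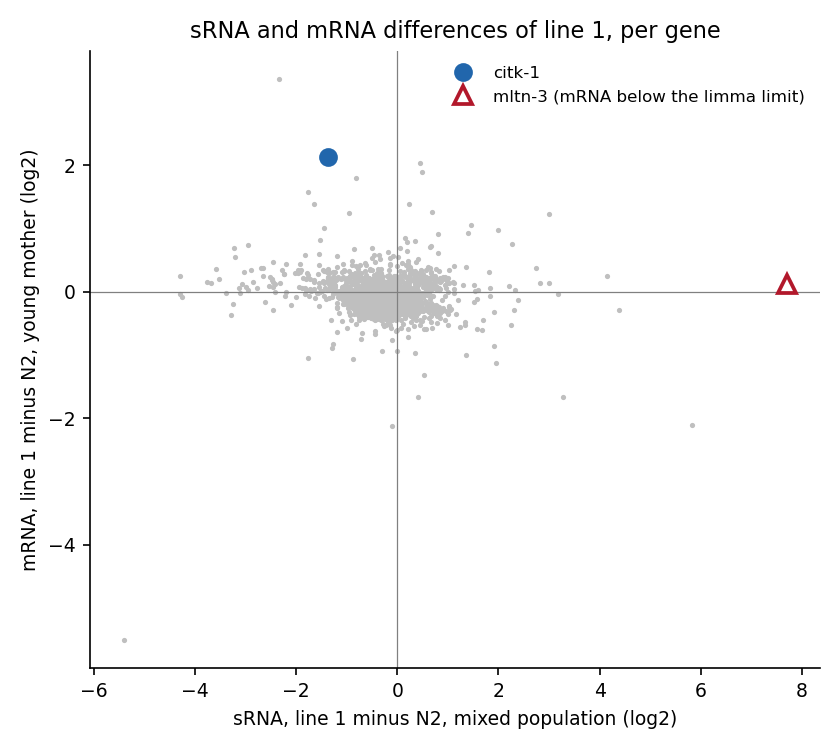
Log2 difference of line 1 from N2 in sRNA of mixed populations (x axis) and in mRNA of young mothers (y axis) for the 4720 genes tested in both (grey); citk-1 is the blue circle and mltn-3, whose mRNA lay below the limit of the limma test, the red triangle. citk-1 lies at -1.36 and 2.13, and mltn-3 at 7.70 (here the difference of mean log2 values) and 0.12.

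In rde-11 mutants citk-1 sRNAs rose, opposite to their direction in the meg-3 meg-4 lines, and mltn-3 sRNAs stayed scarce. citk-1 had 391 and 354 RPM in N2 young mothers and 718.0 and 672 RPM in the mutant, with no overlap. The means were 373 ± 26.1 and 695 ± 32.2 RPM (SD, n = 2 each), a ratio of 1.87 and a limma log2 difference of 0.90 (SE 0.096, adjusted p = 0.000378). Of 7855 tested genes, 26.8% were called, 18.3% higher and 8.56% lower, the median difference was 0.163, and 97.0% of genes lay below citk-1. After TMM scaling the citk-1 difference was 0.78 (adjusted p = 0.000719). The authors' deposited table gives a log2 fold change of 0.817 with an adjusted p of 2.58e-07, which is rank 166 of 10909 genes.

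mltn-3 had 2.11 and 2.47 RPM in N2 young mothers and 4.68 and 2.23 RPM in rde-11, or 21 and 30 reads, and the groups overlapped. The ratio of pooled reads per depth was 1.45, with a counting interval of 0.802 to 2.66, and edgeR gave a log2 difference of 0.41 (adjusted p = 0.633). mltn-4 and mltn-5 had 2 reads each in N2, and 2 and 0 reads in the mutant.

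mltn-4 and mltn-5 are described above without a test. No other relative of mltn-3 was called higher in any comparison by the main limma test, edgeR or DESeq2. Most relatives had too few sRNA reads for the limma test. The MLT-10 family list holds 13 genes without mltn-3, and all are listed in the tables. In the lines mltn-7 and mltn-8 were the only members with enough sRNA reads for the limma test, and neither was called higher. mltn-7 averaged 23.03 RPM in N2 and 11.3, 12.3, 13.6 and 8.97 RPM in lines 1 to 4, and mltn-8 averaged 22.3 RPM in N2 and 17.3, 15.1, 13.96 and 13.2 RPM. mltn-7 was called lower in all 4 lines and mltn-8 in lines 3 and 4, and neither in any line after TMM scaling or with edgeR. Without N2 replicate 1, or without either library of the line, only the call of mltn-7 in line 4 was kept. The other 9 members besides mltn-4 and mltn-5, mlt-10 itself among them, averaged at most 1.98 RPM in any line and at most 1.46 RPM in N2. In rde-11, mltn-8 alone was tested, at 18.2 RPM in N2 and 24.3 RPM in the mutant, and was not called. No member had enough mRNA signal for the test, and the highest, mlt-10 in N2, averaged 2.498.

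Of 23 other genes with roles in moulting, 7 or 8 had enough sRNA reads in a line. nas-36, which encodes an astacin metalloprotease needed to shed the old cuticle, was the only one called higher by limma with all libraries; without N2 replicate 2 there were 2 in line 1. Its sRNAs averaged 79.5 RPM in N2 and rose to 364, 244, 243 and 399 RPM in lines 1 to 4 (log2 2.15, 1.59, 1.60 and 2.31), and the calls were kept after TMM scaling. nas-36 sRNAs also rose in rde-11, from 105 to 411 RPM (log2 2.00, adjusted p = 0.000278 with limma), where mltn-3 was 2.29 and 3.45 RPM. bli-3, a dual oxidase that cross-links cuticle collagen, was called lower in all 4 lines, from 27.9 RPM in N2 to 11.03, 14.1, 15.5 and 15.4 RPM, but after TMM scaling in line 1 alone (adjusted p = 0.0258), and edgeR called it in no line. noah-2 and nhr-23 were called lower in line 4 as deposited and not after TMM scaling.

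The list's median sRNA difference was -0.220, -0.321, -0.299 and -0.456 in the lines, against -0.336, -0.562, -0.590 and -0.771 for all genes. In rde-11, 9 members were tested, and lin-42 fell from 101 to 29.7 RPM (log2 -1.73), mlt-11 from 21.1 to 12.4 RPM (-0.72) and mlt-8 from 189 to 131 RPM (-0.52). The lin-42 call was kept without any single library. That of mlt-11 was lost with DESeq2 and without N2 replicate 1 or rde-11 replicate 1, and that of mlt-8 without either N2 library. In mRNA 7 members were tested. bli-3 rose from 31.5 to 39.2 (log2 0.31, limma adjusted p = 0.0386) and lrp-1, a megalin-like receptor of the hypodermis, from 258 to 321 (0.31, adjusted p = 0.0324). Both calls were lost without either N2 library and without replicate 1 of line 1, and that of bli-3 also without replicate 2 of line 1. The list's median was 0.133, against -0.110 for all genes.

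Markers of other cell types were read beside these results. Germline and oocyte markers fell in mRNA of line 1 for 5 of 12 genes (3 after TMM scaling) and rose for none, beside 10.3% of all tested genes called lower. Their median was -0.248 against -0.110 for all genes, and their summed signal was 9849 and 9491 in N2 and 7982 and 8079 in line 1. The largest falls were those of the eggshell gene cpg-2, from 1666 to 1277, and of oma-1, from 115 to 89.5. None of these calls was left without either N2 library, 2 and 3 were left without replicates 1 and 2 of line 1, edgeR called none and DESeq2 called 8. Sperm markers were not called in any of 22 tested genes, with sums of 521 and 550 in N2 and 543 and 487 in line 1, and without replicate 1 or 2 of line 1 there were 2 calls, lower and higher respectively. The 6 yolk genes were not called either, with a median of 0.350 and sums of 16049 and 16538 against 18664 and 23128, but 4 were called higher by DESeq2 and by limma without replicate 1 of line 1. Of 10 hypodermis and cuticle markers only col-19 was tested, and it was not called; their sums were 1995 and 1846 in N2 and 2211 and 2090 in line 1. The part of these cell types in the citk-1 mRNA change was not tested.

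Among sRNAs, germline and oocyte markers were lower in lines 2 to 4, with 9, 10 and 10 of 11 tested called lower as deposited and 1, 0 and 0 after TMM scaling, and none was called in line 1. Of all tested genes 52.8, 54.4 and 66.7% were called lower in lines 2 to 4. Without 1 library of the line, 1 or 3 were called lower for line 2, 0 or 2 for line 3, and 7 or 6 for line 4. Without N2 replicate 2, 7 were called lower in line 1. edgeR called 1, 0 and 0 lower in lines 2 to 4. In rde-11 their sums were 831 and 1016 RPM in N2 and 1092 and 1304 RPM in the mutant, and 3 of 11 were called higher, none after TMM scaling or without N2 replicate 1 or rde-11 replicate 2, beside 18.3% of all tested genes. Under TMM scaling and with edgeR 1 was called lower. Yolk genes fell in rde-11 for all 3 tested (vit-1, vit-2 and vit-6), beside 8.56% of all tested genes called lower. The 3 calls were kept after TMM scaling, but 1 was left without either N2 library, 2 without either rde-11 library and 1 with DESeq2. Hypodermis and cuticle markers, the tissue in which mlt-10 is known to act, summed to at most 7.33 RPM in any sRNA library, and none had enough reads to test. Sperm markers had 1 tested gene in the lines and 2 in rde-11, and limma called none with all libraries, but under TMM scaling 1 was called lower in rde-11, and without N2 replicate 1 the tested gene was called lower in each line. In line 4 vit-2 and vit-5 were called higher through replicate 2, which held 92.3 and 27.1 RPM against 20.1 and 5.36 RPM in replicate 1. Neither was called after TMM scaling, with edgeR or DESeq2, or without either N2 library.

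The genes whose sRNA pattern over the 10 mixed-population libraries was most like that of each member were found by Pearson's r of log2(RPM + 1) among 6356 genes. These r values describe the pattern only, since the libraries share their groups and their N2 pair. For mltn-3 they were B0250.7 (0.995), gcy-35 (0.994), T16H12.2 (0.994), F41C3.8 (0.993) and hint-3 (0.991). Their own ratios were smaller: F41C3.8 averaged 12.3 RPM in N2 and 514 to 781 RPM in the lines, and gcy-35, a soluble guanylate cyclase gene, 4.66 and 64.3 to 80.7 RPM. Of the 5, hint-3 and B0250.7 had enough mRNA to test, and hint-3 fell from 15.4 to 9.89 (log2 -0.59, limma adjusted p = 0.0178), a call lost without either N2 library, while B0250.7 was 39.97 in N2 and 20.2 in line 1 (adjusted p = 0.0722). In rde-11 B0250.7 fell from 616 to 453 RPM (log2 -0.44, limma adjusted p = 0.00939), a call lost without N2 replicate 1. F41C3.8 rose there from 6.27 to 14.4 RPM (1.08, limma adjusted p = 0.0464), a call lost without N2 replicate 2 and with DESeq2. T16H12.2 and hint-3 were not called in rde-11, and gcy-35 was below the limit.

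For citk-1 the most similar were Y73B6BL.288 (0.988), nhr-48 (0.988), F33E2.5 (0.988), R11D1.1 (0.987) and R10F2.6 (0.986). F33E2.5 averaged 327 RPM in N2 and 85.8 to 115 RPM in the lines. nhr-48, a nuclear hormone receptor gene, and R11D1.1 had enough mRNA to test, and neither was called: nhr-48 mRNA was 23.1 in N2 and 22.4 in line 1, and R11D1.1 mRNA was 37.5 and 33.1. In rde-11, where citk-1 sRNAs rose, R10F2.6 also rose, from 36.5 to 60.7 RPM (log2 0.69, limma adjusted p = 0.0293). That call was lost with DESeq2 and without either N2 library or rde-11 replicate 1. F33E2.5 fell in rde-11 from 289 to 151 RPM (-0.93, limma adjusted p = 0.000894), and the other 3 were not called.

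The opposite directions of citk-1 sRNAs in line 1 and in rde-11 come from separate libraries and separate N2 controls. The rde-11 gene itself differed in line 1: its mRNA fell from 30.5 to 8.96 (log2 -1.66, limma adjusted p = 0.000125). sRNAs mapping to rde-11 averaged 389 RPM in mixed N2 and 3767, 1616, 920 and 1911 RPM in lines 1 to 4. The part of rde-11 in the citk-1 values of the lines was not tested. Of 6457 genes tested in both, 874 were called lower in line 1 and 1326 higher in rde-11, and 120 were both, or 13.7 and 9.05%. The first share lies below the 20.5% of all 6457 genes that were called higher in rde-11. More genes, 247, were called lower in both, and after TMM scaling 55 went in opposite directions and 202 were lower in both. The largest gain in rde-11 among the 120 was that of shw-1, a potassium channel gene, with -1.32 in line 1 and 1.60 in rde-11. citk-1 is one of the 120, with -1.36 and 0.90. Both values were in view when citk-1 was chosen, so nothing is read from its place there.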

How the data were processed

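Per the labels' protocols, a 5' polyphosphatase step preceded sRNA library preparation, and ribosomal RNA was removed before mRNA library preparation. Per the submitters' processing notes the tools were DESeq2, HTSeq, HISAT2, Bowtie2 and cutadapt, and the genome build was ce10; versions, annotation, strand setting and the treatment of reads shared by related genes are not given in the sources used here. The authors deposited RPM per sRNA library, whose columns share 1 total. The authors deposited a scaled signal per mRNA library, whose column totals are unequal. A log2 fold change and a p-value stand beside these values per the file headers, raw and adjusted; both come from the authors and are printed only where named as the authors'.

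Each column was turned back into whole reads through its smallest step, which is 1 read, and 100% of values came out whole within 0.02. All 4 mixed tables hold the same N2 columns. The main test was limma 3.58.1 with trend (R 4.3.3), applied to log2(value + 1). Genes entered it when their 4 libraries averaged 10 or more, with Benjamini-Hochberg adjustment over all genes tested and a threshold of 0.05. The added 1 makes fold changes of scarce genes smaller than their ratios. The test was also run on simulated data with 200 changed genes, and the outcome is not given here. Unchanged genes had the same mean in every simulated group, so the downward median shift of the lines was not covered. edgeR 4.0.16 (quasi-likelihood) and DESeq2 1.42.0 were run on the recovered reads, and TMM scaling, pseudocounts of 0.5 and 5, no limit on low values, a replicate block and leaving out each library were the other alternatives. Ratios of pooled reads have exact 95% intervals for counting error. Counts of list members without each library were added after the values were seen.

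The members and the gene lists were chosen with earlier results of these data known. Named were the pair, the mutated genes, the genes of W02B8 and the 4 genes on each side of the pair, up to 4 called list members per comparison with the largest change, and the 5 genes most like each member. Older symbols (gei-12 for meg-3, C36C9.1 for meg-4) were matched through gene identifiers. Gene order came from RefSeq WBcel235, and no coordinate or sequence is printed since the build differs and no sequence table was used here. The results for 1 gene list are not reported here.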

Additional observations from a re-analysis of the deposited data

Results flagged for a closer look

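sRNAs mapping to citk-1 differed among the 4 meg-3 meg-4 lines, by 0.60 on the log2 scale between line 2, the highest, and line 4, the lowest (limma F test over the 8 line libraries, adjusted p = 0.0281). Both libraries of line 4, at 71.7 and 59.4 RPM, lay below all 6 libraries of the other lines. As a share of all tested genes, 27.3% differed among the lines. The same 8 libraries also took part in the choice of the pair. The range of adjusted p over the alternatives included values on both sides of the threshold, from 0.0166 in the fit with replicate numbers to 0.22 without replicate 2 of line 4.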

How the results depend on the processing

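Over 20 results and 192 alternatives, 145 left the result unchanged. Such values stayed on the same side of the threshold or, with no test, moved by less than the spread between replicates. Counts of called genes were taken as unchanged when they moved by at most 1.5 times. No called value changed sign. The uncalled mltn-3 difference did in 3 of the 145: in mRNA from 0.12 to -0.10 without N2 replicate 1 and to -0.22 without replicate 2 of line 1, and in rde-11 from 0.38 to -0.02 without rde-11 replicate 1. The call of citk-1 mRNA in line 1 was kept in every alternative run, with log2 2.12 to 2.14 when single libraries were left out, and so was that of citk-1 sRNA in rde-11, with 0.83 to 0.97. With a pseudocount of 5 the mltn-3 differences in lines 1 to 4 were 6.56, 7.03, 7.22 and 7.06, since a larger added number shrinks differences from a scarce level. Under TMM the citk-1 differences were -1.05, -0.75, -0.79 and -1.20. Without single libraries mltn-3 ran from 7.20 to 8.21, 7.78 to 8.69, 7.98 to 8.88 and 7.81 to 8.71, and citk-1 from -1.44 to -1.28, -1.29 to -1.14, -1.45 to -1.26 and -1.95 to -1.68. The citk-1 spread among lines was 0.45 with DESeq2, 0.46 with edgeR and 0.60 with no limit on low values, each past the threshold no longer, and 0.46 to 0.73 without single libraries. The mltn-3 spread was 0.30 to 1.16 without single libraries.

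Counts of called genes moved most, and for none of the following was the cause tested. Line 1 had 1146 called genes, 236 with no limit on low values and 611 to 2281 without single libraries. Line 2 had 3915, against 1159 with DESeq2, 1465 with TMM, 1508 with edgeR and 926 to 4616 without single libraries. Line 3 had 4004, against 1216, 1643, 1742 and 808 to 4728. Line 4 had 4750, against 1258, 1753, 1642 and 2054 to 4846. The mRNA count was 1103, against 719 with TMM, 653 with edgeR, 114 with no limit and 23 to 1090. The rde-11 count was 2107, against 1074 with DESeq2 and 572 to 1971. Counts moved by more than 1.5 times without either library of each line, without mixed N2 replicate 2 (line 1), without either N2 mRNA library (23 and 35), and without N2 young-mother replicate 1 or rde-11 replicate 2 (572 and 927). Higher against lower calls were 207 and 939 in line 1, 427 and 515 under TMM. They were 389 and 3526, under TMM 815 and 650, in line 2, 388 and 3616, under TMM 1083 and 560, in line 3, and 356 and 4394, under TMM 911 and 842, in line 4. They were 318 and 785, under TMM 294 and 425, in mRNA, and 1435 and 672, under TMM 781 and 860, in rde-11.

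Groups share replicate numbers, but no label says that a number marks a shared batch. The correlation of same-numbered deviations was 0.515, 0.0781, -0.125 and -0.214 in lines 1 to 4, 0.229 in mRNA and 0.404 in rde-11, with only 2 pairs each. With the replicate number as a block 2969 genes were called in line 1, 4217, 2851 and 4825 in lines 2 to 4, 2497 in mRNA and 3936 in rde-11. The block kept both citk-1 calls and brought the mltn-3 spread of 0.73 past the threshold (adjusted p = 0.0229). It could not be fitted for mltn-3 in mRNA and in rde-11, which lay under the limit on low values. Counting intervals there rest on 21 to 91 reads of mltn-3 per group.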
